A study of Caenorhabditis elegans with 2 samples.

Results

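The neuropeptide and insulin-like peptide genes of the nematode Caenorhabditis elegans were examined in late embryos for sites bound by NPAX-4, a factor with a paired domain. Members were the nuclear protein-coding genes of the WBcel235 annotation whose symbols start with flp-, nlp- or ins- and a digit, and 140 of 19973 genes met this rule. There were 31 flp genes, 71 nlp genes and 38 ins genes. A member was scored by the peak summits, the highest point of each listed region, that lay inside the gene or within 5 kb of its 5′ end on either side. The rule uses symbols and no binding value, although the gene families were picked with earlier results of these data known.

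Binding was measured by chromatin immunoprecipitation and sequencing (ChIP-seq) in hermaphrodites of strain OP493, with the genotype unc-119(tm4063) III and wgIs493. The strain stably expressed NPAX-4 fused at its C terminus to GFP and FLAG, and an antibody against GFP was used. Whole late embryos were collected 4 hours after synchronisation by egg bleaching, and the chromatin was sonicated. Both libraries were labelled as biological replicates of this single condition, so no treated or mutant group was available for comparison and no untagged strain was analysed here.

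FMRFamide-like peptide (flp) and neuropeptide-like protein (nlp) genes encode precursors that the convertase EGL-3 and the carboxypeptidase EGL-21 cut and trim into short peptides, which neurons release from dense core vesicles to act on G protein-coupled receptors. Insulin-like peptide (ins) genes encode ligands of DAF-2, the insulin receptor of the worm, and individual peptides act as agonists or as antagonists in dauer entry, growth and ageing. Some nlp genes, among them nlp-29 and nlp-31, are best known as antimicrobial peptide genes of the epidermis. Transfer RNA (tRNA) genes, which lie close to some of the members, are transcribed by RNA polymerase III from the A box and B box inside the gene.

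The sequences at 6 strict member summits and at ins-17 are shown first, because the small RNA genes that several of them contain recur in the results. Each is the plus strand of WBcel235, 151 bases centred on the summit, and none contains bases of a protein-coding exon. At flp-23 the window was chrIII:8650362-8650512, and capitals mark the tRNA-Pro gene F22B7.t5.
flp-23 summit: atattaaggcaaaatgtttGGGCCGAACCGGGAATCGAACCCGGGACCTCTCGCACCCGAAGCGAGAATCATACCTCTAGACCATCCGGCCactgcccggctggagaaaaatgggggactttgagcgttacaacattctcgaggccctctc
At nlp-76 the summit upstream of the gene was in chrX:12665160-12665310, with the tRNA-Tyr gene C02B4.t2 in capitals, and the one past its 3′ end was in chrX:12661159-12661309, with the tRNA-Ile gene C02B4.t1 in capitals.
nlp-76 upstream summit: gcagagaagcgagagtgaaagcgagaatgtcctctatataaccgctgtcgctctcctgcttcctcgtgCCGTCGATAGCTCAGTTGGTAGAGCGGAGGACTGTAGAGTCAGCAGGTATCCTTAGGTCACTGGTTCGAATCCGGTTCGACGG
nlp-76 downstream summit: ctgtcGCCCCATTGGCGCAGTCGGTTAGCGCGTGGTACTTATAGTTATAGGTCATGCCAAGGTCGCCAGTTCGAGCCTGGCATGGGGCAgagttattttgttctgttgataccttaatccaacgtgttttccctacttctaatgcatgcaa
At ins-13 the window was chrII:5543661-5543811, and capitals mark the end of the spliced leader gene sls-2.2. At ins-37 it was chrII:13834424-13834574, and capitals mark the unclassified noncoding RNA gene F08G2.13.
ins-13 summit: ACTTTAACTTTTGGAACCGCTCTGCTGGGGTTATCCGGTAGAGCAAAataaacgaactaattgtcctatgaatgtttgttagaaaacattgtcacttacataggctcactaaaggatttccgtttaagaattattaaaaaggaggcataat
ins-37 summit: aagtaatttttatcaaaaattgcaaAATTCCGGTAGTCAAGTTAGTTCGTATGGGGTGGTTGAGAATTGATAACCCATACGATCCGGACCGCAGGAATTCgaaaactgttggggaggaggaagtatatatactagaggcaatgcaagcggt
At nlp-46 the window was chrV:12510093-12510243, and capitals mark the 13 exact copies of a repeat unit of 9 bases.
nlp-46 summit: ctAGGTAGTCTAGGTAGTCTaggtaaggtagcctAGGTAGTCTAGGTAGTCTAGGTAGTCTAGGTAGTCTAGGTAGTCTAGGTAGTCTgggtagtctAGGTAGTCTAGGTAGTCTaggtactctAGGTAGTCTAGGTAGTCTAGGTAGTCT
At ins-17, the member with the highest joint-list signal outside the strict list, the window was chrIII:4475599-4475749, and capitals mark the word TCACGC, part of the half-site that paired domains bind. Few member summits held this word, 6 of 135 in the joint list and 0 of 7 in the strict list.
ins-17 summit: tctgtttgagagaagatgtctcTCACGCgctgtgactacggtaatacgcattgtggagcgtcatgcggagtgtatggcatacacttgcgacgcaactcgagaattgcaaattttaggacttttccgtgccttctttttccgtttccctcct

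Regions came from 4 deposited lists on ce11, the same assembly as WBcel235. The strict list was thresholded on the irreproducible discovery rate (IDR) and held 341 regions once only the strongest was counted wherever regions overlapped. The relaxed lists held 11555 regions for both replicates jointly, 17422 for replicate 1 and 17000 for replicate 2. The joint list is described as peaks and background for the IDR step. Its regions therefore need not be bound sites, and most did not enter the strict list. The replicate lists were not thresholded on the IDR either. Signal is the authors' value for each region, with its scale not stated, and it is used to describe and rank regions within a list. The median signal was 115 in the IDR list, 34.9 in the joint list, 19.7 in replicate 1 and 17.2 in replicate 2. The files give no read counts, so sequencing depth is unknown. Intervals on shares are 95% exact Clopper-Pearson intervals over genes, which cover counting error only, and neighbouring genes can share a summit.

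The strict list placed a summit near 6 of the 140 members, which was 4.29% (interval 1.59 to 9.10%), beside 4.10% of all protein-coding genes. These members were flp-23, nlp-4, nlp-46, nlp-76, ins-13 and ins-37, with 7 summits between them. By family, 1 of 31 flp genes (3.23%), 3 of 71 nlp genes (4.23%) and 2 of 38 ins genes (5.26%) had one. The share among all members was near the share in the genome, and the family intervals overlapped widely, from 0.0816 to 16.7% for flp, 0.880 to 11.9% for nlp and 0.644 to 17.8% for ins.

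The relaxed lists reached most members at shares that were likewise near those of other genes. In the joint list 95 members (67.9%, interval 59.5 to 75.5%) had a summit, beside 65.1% of all protein-coding genes. They comprised 17 flp genes (54.8%, interval 36.0 to 72.7%), 50 nlp genes (70.4%, interval 58.4 to 80.7%) and 28 ins genes (73.7%, interval 56.9 to 86.6%). In replicate 1 the count was 121 members (86.4%) beside 80.7% of all genes, made up of 29 flp, 58 nlp and 34 ins genes. In replicate 2 it was 116 members (82.9%) beside 80.0% of all genes, made up of 26 flp, 55 nlp and 35 ins genes. Flp genes thus had the lowest share of the families in the joint list and the highest in replicate 1, so their place in the order depended on the list.

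**Figure D1:**
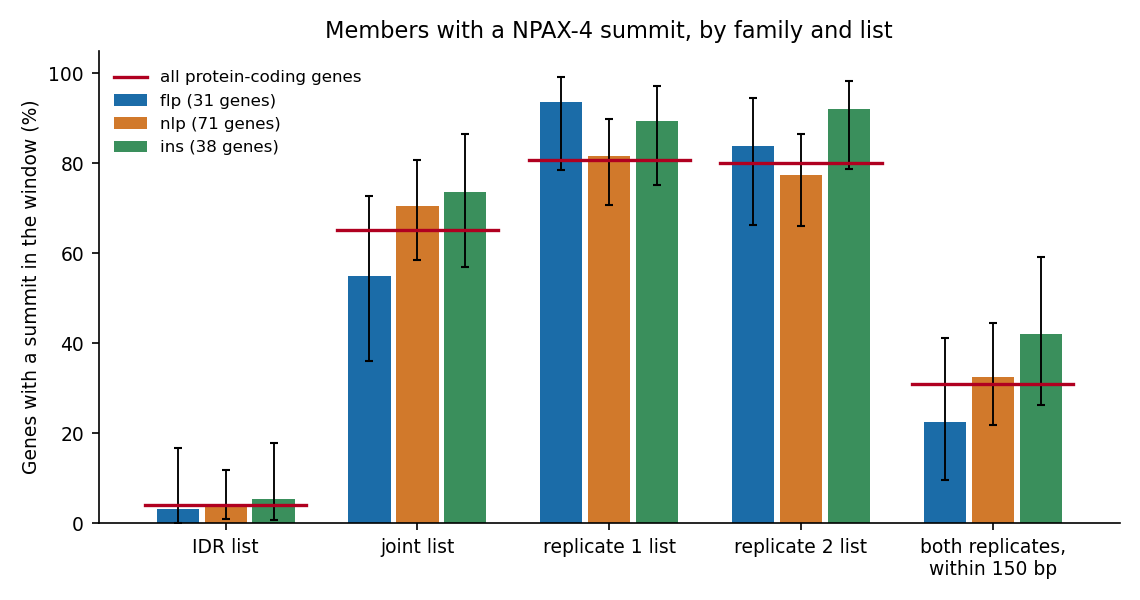
Share of flp (31), nlp (71) and ins (38) genes with a NPAX-4 summit inside the gene or within 5 kb of its 5′ end, in percent, for each list; bars are shares, whiskers are 95% exact intervals over genes, and red lines are the share of all protein-coding genes. The red line lies inside the interval of every family in every list, from 4.10% of genes in the IDR list to 80.7% in replicate 1.

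Member genes were short, with median lengths of 1186 bp for flp, 860 bp for nlp and 649 bp for ins, beside 2027 bp for all protein-coding genes. The 5 kb flanks set the window, which had a median of 10001 bp in each family and in all genes. Summits per 10 kb of window in the joint list numbered 0.988 for flp, 1.18 for nlp and 1.29 for ins, beside 1.11 for all genes. The families also differed in chromosome, since 13 flp genes (41.9%), 19 nlp genes (26.8%) and 2 ins genes (5.26%) were on X, beside 13.7% of all genes.

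In the joint list, 4 of the 13 X-linked flp genes (30.8%) had a summit, and 13 of the 18 autosomal ones (72.2%) did. Among nlp genes the joint shares were 11 of 19 (57.9%) on X and 39 of 52 (75%) on autosomes. Over all members they were 17 of 34 (50%) on X and 78 of 106 (73.6%) on autosomes, beside 62.9% and 65.4% of all protein-coding genes. In replicate 1 the shares of members were 79.4% on X and 88.7% on autosomes, and in replicate 2 they were 82.4% and 83.0%. For summits of both replicates within 150 bp of each other the order was reversed. These were found for 41.2% of members on X and 30.2% on autosomes, beside 29.7% and 31.1% of all protein-coding genes. The low share of X-linked flp genes was a feature of the joint list, because each replicate's own list had a summit near 12 of the 13. Whether the chromosome has a part in the lower joint share of flp genes was not tested.

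The 7 strict summits lay in the windows of 2 to 8 protein-coding genes each, and the member had the nearest 5′ end of all at flp-23, nlp-4, ins-13 and the upstream summit of nlp-76. Flp-23, an FMRFamide-like peptide gene on chromosome III, had its summit 330 bp upstream of its 5′ end. Its signal was 128.2 in the IDR and joint lists, where it ranked 137th, 61.3 in replicate 1, where it ranked 166th, and 60.6 in replicate 2, where it ranked 151st. It was the only member whose strict summit lay in the promoter interval, from 500 bp upstream to 100 bp downstream of the 5′ end, which was 0.714% of members beside 0.881% of all protein-coding genes. The summit lay inside F22B7.t5, a tRNA-Pro gene on the opposite strand, as shown in capitals above. Counting itself, 4 annotated small RNA genes have its sequence.

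All 4 joint summits in the window of flp-23 were within 500 bp of tRNA genes. The other three had joint signals of 31.7 at the tRNA-Phe gene F22B7.t3, 30.2 at the tRNA-Phe gene F22B7.t4 and 29.99 at the tRNA-Ser gene F22B7.t2. Replicate 1 had only the promoter summit in this window, whereas replicate 2 had 5 summits.

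Nlp-76, on chromosome X, was the member with the highest signal and the only one with 2 strict summits. The summit 1332 bp upstream of its 5′ end had a signal of 195.1 and ranked 55th in the IDR and joint lists, and it ranked 80th in replicate 1 (signal 86.1) and 48th in replicate 2 (signal 106.2). It lay in an intron of nhr-17, a nuclear hormone receptor gene, and inside the tRNA-Tyr gene C02B4.t2. Counting C02B4.t2 itself, 6 annotated small RNA genes have that sequence. The second summit, 2669 bp on the downstream side and past the 3′ end, had a signal of 83.1 and ranked 301st. It ranked 2023rd in replicate 1 (signal 27.5) and 167th in replicate 2 (signal 58.1), so the replicates placed it far apart. It lay inside the tRNA-Ile gene C02B4.t1, and the nearest 5′ end was that of C02B4.3.

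Nlp-4, on chromosome I, had its strict summit 785 bp to the downstream side of its 5′ end, past the 3′ end of the gene. The signal was 100.6 (ranked 220th) in the IDR and joint lists, 44.9 (ranked 296th) in replicate 1 and 54.9 (ranked 180th) in replicate 2. The snoRNA gene F59C6.15, of the class that guides modification of other RNAs, lay 120 bp away. The summit fell in the windows of 8 protein-coding genes, nlp-4 being the one with the nearest 5′ end.

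Nlp-46, on chromosome V, had its strict summit 3883 bp upstream, the farthest of the 7, and the nearest 5′ end was that of T28H10.2, at 2781 bp. The signal was 89.0 (ranked 271st) in the IDR and joint lists and 49.99 (ranked 245th) in replicate 1, with a summit 101 bp away. In replicate 2 it was 39.3 (ranked 357th), just outside the 341 highest regions of that replicate. No small or other noncoding RNA gene lay within 500 bp. The 151 bases at the summit were a tandem repeat with the unit AGGTAGTCT, and 92.2% of bases matched the base 9 positions further on. Windows that matched themselves at 80% or more of bases at any shift from 2 to 50 made up 1.20% of the IDR list (4 of 333 nuclear summits) and 0.606% of the joint list. How the authors treated reads from repeats is not given in the sources used here, and its part in this summit was not tested.

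Ins-13, an insulin-like peptide gene on chromosome II, had its strict summit 1128 bp to the downstream side of its 5′ end, past the 3′ end. The signal was 115.1 (ranked 172nd) in the IDR and joint lists, 51.0 (ranked 240th) in replicate 1 and 63.6 (ranked 138th) in replicate 2. The summit was 29 bp from sls-2.2 and 428 bp from sls-2.3, which encode SL2 RNA, the spliced leader that is added to downstream mRNAs of operons.

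Ins-37, also on chromosome II, had its strict summit 1608 bp to the downstream side, again past the 3′ end. The signal was 137.1 in the IDR and joint lists, 72.7 (ranked 113th) in replicate 1 and 63.4 (ranked 139th) in replicate 2. The summit lay inside F08G2.13, a noncoding RNA gene of 75 bp with no class in the annotation, and the nearest 5′ end was that of F08G2.5, at 868 bp.

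**Figure D2:**
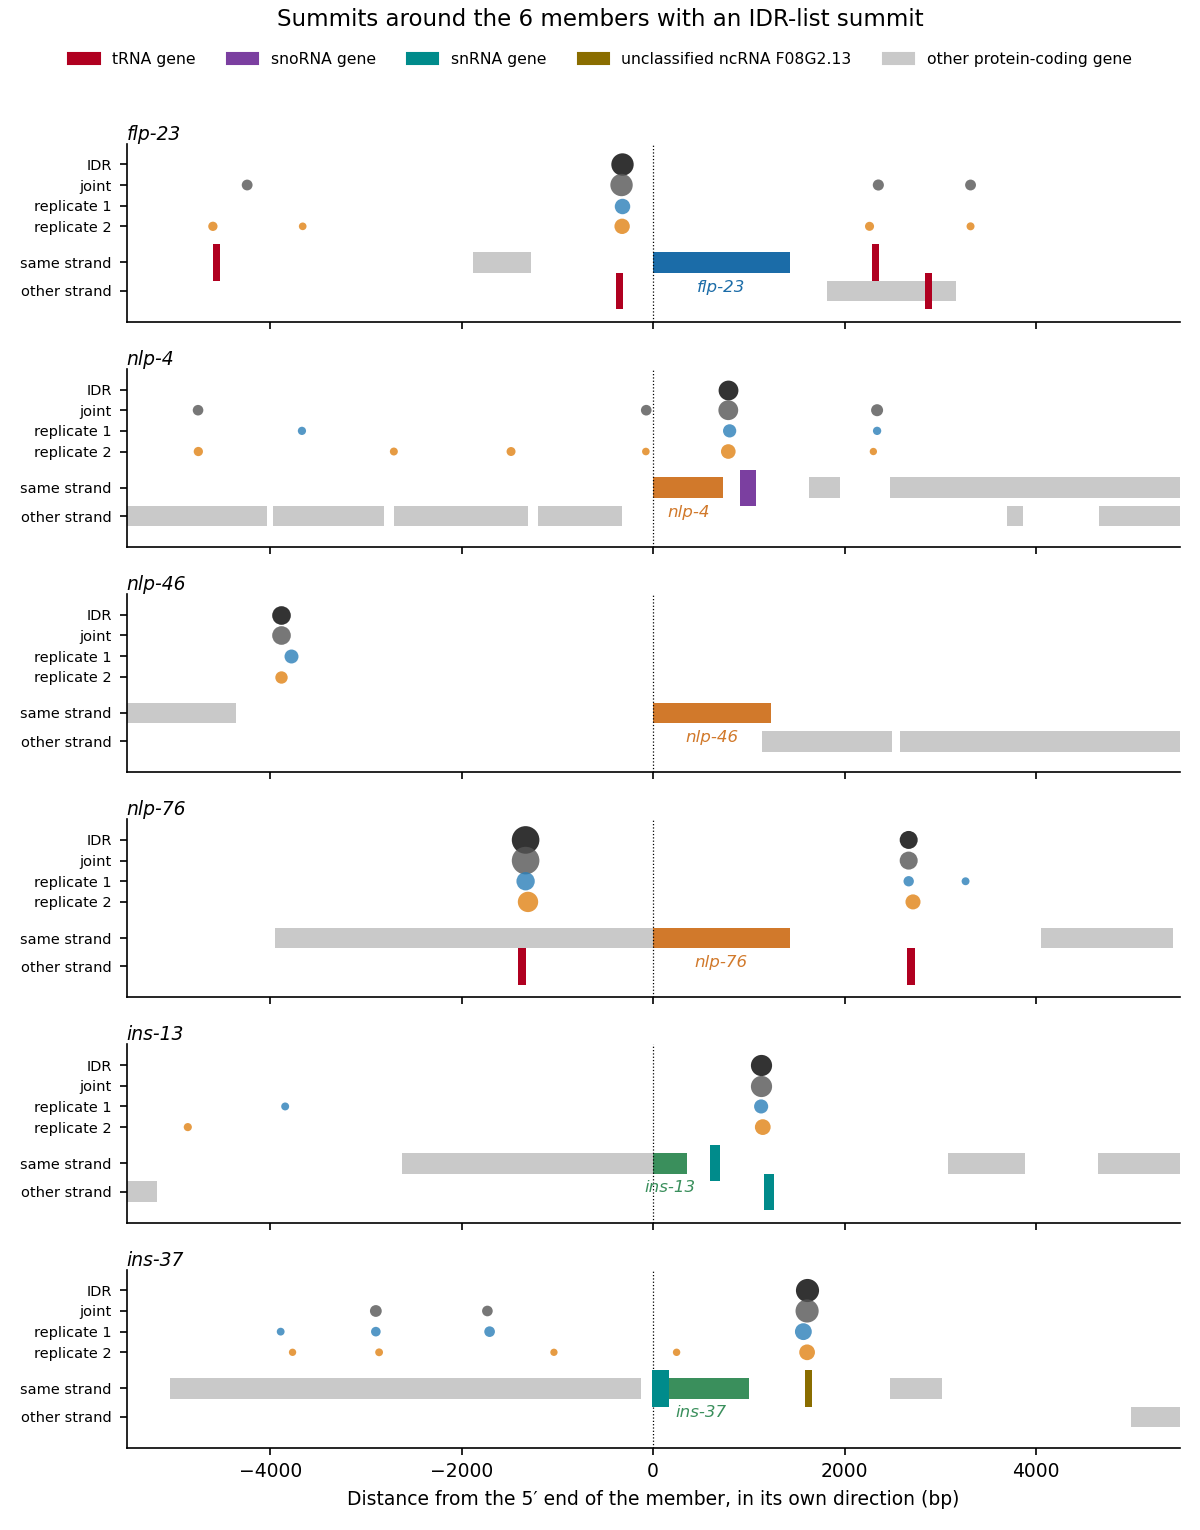
Summits (circles) in each list around the 6 members with an IDR summit, by distance from the member's 5′ end in its own direction (bp); circle area grows with the signal, and boxes are annotated genes on the same or the other strand. Only flp-23 has its strict summit just upstream of its 5′ end (330 bp). At flp-23, nlp-4, nlp-76 and ins-13 the strict summits lie on or beside a coloured small RNA gene, and at nlp-46 none is near. At ins-37 the summit lies in F08G2.13. This is the only unclassified noncoding RNA gene drawn, although others lie within 500 bp of strict member summits.

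Thus 5 of the 7 strict member summits (71.4%) had a small RNA gene within 500 bp, of which 3 were at tRNA genes, 1 at a snoRNA gene and 1 at the spliced leader genes, which are annotated as snRNA. Among all 333 nuclear summits of the IDR list the share was 55.9%. In the relaxed lists the share was low for members and for all summits, at 10 of 135 member summits (7.41%) beside 7.44% in the joint list, 9 of 199 (4.52%) beside 6.57% in replicate 1, and 14 of 203 (6.90%) beside 6.95% in replicate 2. Of the 10 joint summits, 4 of the 5 at flp genes were the tRNA summits of flp-23, and the other was 340 bp from the piRNA gene 21ur-3217 at flp-17.

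The members were also divided by whether a tRNA, snoRNA or snRNA gene lay in their window, a division chosen after the values above had been seen. Of the 13 members with such a gene, 5 (38.5%) had a strict summit, and of the 127 without one, only nlp-46 did (0.787%). Over all protein-coding genes the shares were 434 of 1728 (25.1%) and 385 of 18245 (2.11%). The snRNA gene near ins-37 was not within 500 bp of its strict summit.

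As many members had a strict summit just outside the window as inside it. A strict summit between 5 and 10 kb of the 5′ end, with none nearer, was found for 6 members (4.29%), beside 2.94% of all protein-coding genes. They were flp-14, nlp-12, nlp-19, nlp-24, nlp-70 and ins-17. The distance for nlp-19 was 5154 bp, with a signal of 147.3 at the tRNA gene K09C8.t1. Flp-14 had one at 5342 bp with a signal of 95.5, nearest to cox-5A, and nlp-24, a gene for opioid-like peptides, had one at 5695 bp with a signal of 127.1. Nlp-12, which encodes cholecystokinin-like peptides, had one at 6532 bp with a signal of 81.9. Ins-17 had one at 6640 bp with a signal of 206.3 at the tRNA gene F56F3.t1, and nlp-70 had one at 7502 bp with a signal of 260.6, nearest to lgc-26. For none of these 6 members was the member's own 5′ end the nearest, and 2 of the 6 summits were at tRNA genes.

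The highest joint signal per member had a median close to that of other genes. Over all members with a joint summit, the strict ones included, the medians were 35.2 for flp, 36.8 for nlp and 38.3 for ins, beside 38.2 for all protein-coding genes, whose quartiles were 32.9 and 46.1. Flp genes ranged from 28.8 to 128.2, nlp genes from 28.9 to 195.1 and ins genes from 29.2 to 137.1. The 6 strict members formed the top of every family, and the next highest member was ins-17 at 65.6. Strict member summits had the same signal and rank in the IDR and joint lists, and the lowest signal in the IDR list was 76.4. This order therefore follows from the selection of the strict list.

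**Figure D3:**
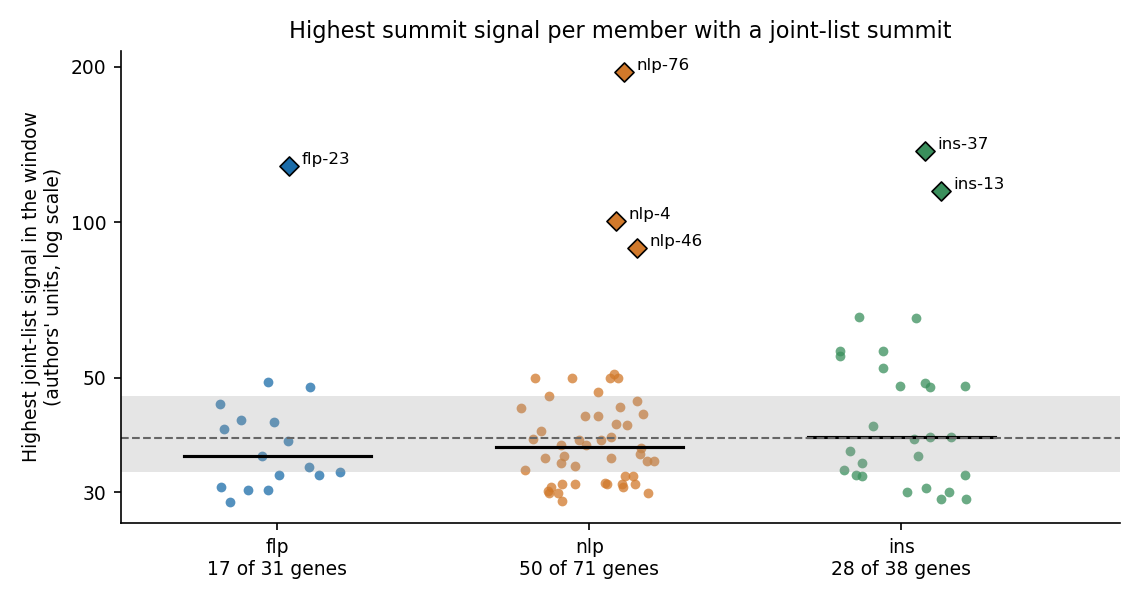
Highest joint-list signal (authors' units, log scale) in the window of each member that had a joint summit; diamonds are the 6 members with an IDR summit, black bars are family medians, and the dashed line and grey band are the median and quartiles of all protein-coding genes. The family medians, 35.2, 36.8 and 38.3, lie inside the band. A gap separates the diamonds, at 89.0 or more, from the remaining members, at 65.6 or less. The lowest signal in the IDR list is 76.4, so the diamonds lie above the others by selection.

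Among flp genes, the members next to flp-23 were flp-14, flp-25, flp-1 and flp-6. Flp-14 had 5 joint summits, the most of any member, and its highest was in its own intron, 2284 bp from the 5′ end, with a joint signal of 49.1. The replicate signals at that site were 29.6 in replicate 1 and 14.9 in replicate 2, where it ranked 13132nd. Flp-25 had a joint signal of 48.1 at 1923 bp upstream, with a replicate 2 summit of 18.9 and no replicate 1 summit within 150 bp. Its replicate 1 summit, with a signal of 33.2 (ranked 782nd), was at 2148 bp upstream. Flp-1, a regulator of locomotion, had a joint signal of 44.5 in its intron, 376 bp from the 5′ end, a replicate 1 summit of 23.4 at the site, and a highest replicate 2 signal of 21.7 at 578 bp. Flp-6 had a joint signal of 41.4 at 4870 bp on the downstream side, nearest to nas-3, and 27.1 at the site in replicate 1. Within 150 bp of the joint summit, none of these 4 sites had signals of both replicates above the medians of their lists. At flp-1 and flp-25 this depended on the 150 bp limit. The summits outside it, 21.7 in replicate 2 at flp-1 and 33.2 in replicate 1 at flp-25, were above those medians.

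Flp-15 and flp-22 had high ranks for their family in one replicate and summits in both. Flp-15 had its highest signals at different sites, 26.3 at 4728 bp upstream in replicate 1 and 22.5 at 4368 bp upstream in replicate 2. Flp-22 had 30.4 at 4371 bp upstream in replicate 1, and its highest signal in replicate 2 was 14.8, at 1777 bp on the downstream side. Among flp genes with no joint summit was flp-11, which encodes sleep-promoting peptides of the RIS neuron, with a highest signal of 20.3 in replicate 1 and 19.7 in replicate 2.

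Among nlp genes the next highest was nlp-36, with a joint signal of 50.7 at 2460 bp on the downstream side, nearest to dars-1, and replicate signals of 30.5 and 20.4. A single summit on chromosome X with a joint signal of 49.9 was shared by nlp-2, nlp-22, nlp-23 and nlp-45. It lay 275 bp upstream of nlp-23, the nearest 5′ end, and 1145 bp upstream of nlp-22, which encodes peptides that promote sleep-like quiescence. Its signal was 20.6 in replicate 1 (ranked 7308th) and 27.8 in replicate 2 (ranked 1055th). The antimicrobial peptide genes nlp-29, nlp-30, nlp-31 and nlp-34 on chromosome V shared joint summits of 31.1 and 30.8, both below the joint median of 34.9.

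Among ins genes, ins-17, ins-10, ins-14, ins-15, ins-32 and ins-35 had joint signals from 52.3 to 65.6. Ins-17 had its joint summit 1898 bp to the downstream side, nearest to rps-1, a ribosomal protein gene. That site ranked 271st in replicate 2 (signal 44.7) and 16215th of 17422 in replicate 1 (signal 15.9), so its joint signal went with replicate 2. Ins-10 had a joint signal of 65.3 at 4666 bp on the downstream side, nearest to vps-39, and ranked 1863rd in replicate 1 (signal 28.0) and 429th in replicate 2 (signal 36.0). Ins-14 and ins-15 shared a summit of 56.3 nearest to exos-8, with 30.1 in replicate 1 and 30.5 in replicate 2. Ins-35, whose joint signal was 52.3 at 2265 bp upstream, had 30.4 in replicate 1 and 23.3 in replicate 2 at summits 103 bp apart, and the replicate 2 summit was over 150 bp from the joint one.

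The 1000 strongest regions of the joint list reached 8 ins genes (21.1%, interval 9.55 to 37.3%), 1 flp gene and 3 nlp genes, beside 10.6% of all protein-coding genes. Over all members the share was 8.57%. The 1000 highest regions of replicate 2 reached 9 ins genes (23.7%), 1 flp gene and 6 nlp genes, or 11.4% of all members beside 10.5% of all genes. Among these 9 ins genes, ins-14 and ins-15 shared their highest replicate 2 summit, as did ins-24 and ins-27. Ins-13 was the only one of the 9 with the nearest 5′ end to its highest replicate 2 summit. The 1000 highest regions of replicate 1 reached 2 ins genes (5.26%), 2 flp genes and 4 nlp genes, or 5.71% of all members beside 10.5% of all genes. The ins genes reached in both replicates were ins-13 and ins-37, which are the strict members. Of the 8 ins genes of the joint list, 7 were also reached in replicate 2 and 2 in replicate 1, and ins-35 was reached in neither. Ins-24 and ins-27 were reached in replicate 2 and not in the joint list.

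The strict members were nearly the same in the highest regions of either replicate. The strict list was made from these same replicates, so this overlap is not independent of the selection. The 341 highest regions of replicate 1 reached the same 6 members (4.29%) beside 4.06% of all genes. The 341 highest of replicate 2 also reached 6 members (4.29%) beside 4.00% of all genes, with ins-17 in place of nlp-46.

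At most members the summits of the replicates did not coincide. A summit lay in the window in both replicates' lists for 102 of the 140 members, in replicate 1 alone for 19 and in replicate 2 alone for 14. Of all 19973 protein-coding genes, the same counts were 13578, 2547 and 2405. Summits of both replicates within 150 bp of each other were found for 46 members (32.9%), beside 30.9% of all protein-coding genes. By family these were 7 flp genes (22.6%, interval 9.59 to 41.1%), 23 nlp genes (32.4%, interval 21.8 to 44.6%) and 16 ins genes (42.1%, interval 26.3 to 59.2%), with overlapping intervals.

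The 45 matched summits in member windows had a Spearman correlation of signal between the replicates of 0.498 and a Pearson correlation of log2 signal of 0.771. Without the 7 strict summits, the 38 remaining gave 0.191 and 0.173. Over all 3715 matched nuclear summits the values were 0.394 and 0.737. The strict list was made from both replicates, so values that include its summits are not independent of that selection. These correlations are across summits, which share the libraries and the control, so they describe the lists and are given without a test.

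**Figure D4:**
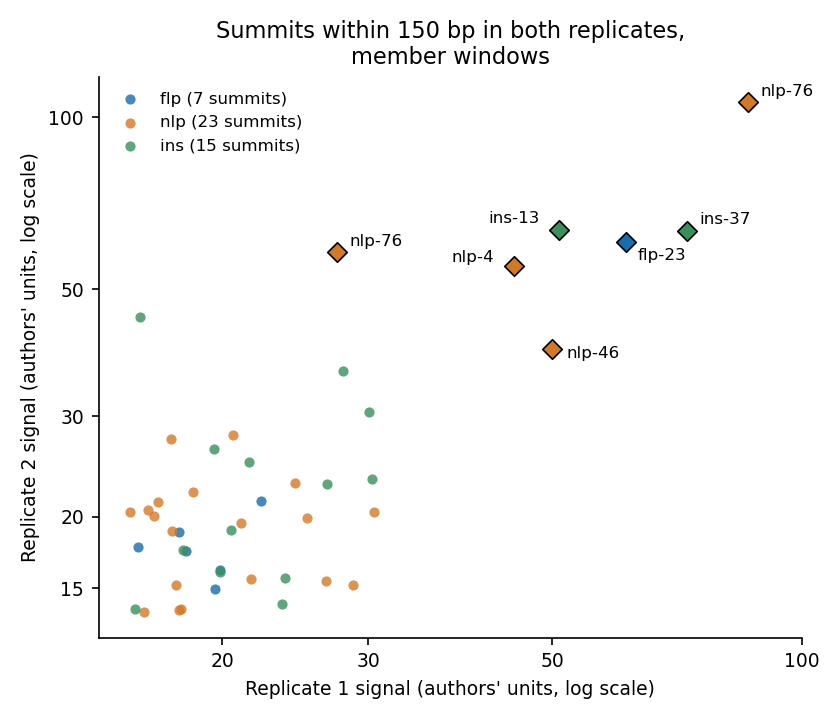
Signal in replicate 1 and in replicate 2 (authors' units, log scales) at the 45 summits in member windows that lay within 150 bp of each other; diamonds are the 7 strict summits. The diamonds run to the upper right, with the downstream summit of nlp-76 lowest in replicate 1 at 27.5, and the other 38 points form a cloud with a Spearman correlation of 0.191.

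Members without any summit in the 4 lists were nlp-1, nlp-5, nlp-16, nlp-19 and ins-1, or 3.57% of members beside 7.07% of all protein-coding genes. Ins-1 encodes an insulin-like peptide known as an antagonist of DAF-2 that acts in learning. No flp gene was without a summit in every list.

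Joint summits fell throughout the windows, and most lay outside the promoter interval, which is a small part of each window. The 164 pairs of a member and a joint summit involved 135 distinct summits, of which 18 were shared by more than 1 member. Of the pairs 51.8% were upstream of the 5′ end, 8.54% in introns, 4.27% in exons and 35.4% past the 3′ end. These shares by position were not counted over all protein-coding genes. Introns held 19.4% of the flp pairs, 8.33% of the nlp pairs and 2.04% of the ins pairs, the order of the families' gene lengths. A joint summit in the promoter interval was present at 14 members (10.0%), beside 11.5% of all genes. They were flp-14, flp-17, flp-18 and flp-23, then nlp-4, nlp-6, nlp-11, nlp-12, nlp-22, nlp-23, nlp-30 and nlp-34, and ins-28 and ins-30.

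Both replicates had a promoter summit at flp-14, flp-23, nlp-11, nlp-22, nlp-23 and ins-28, which was 4.29% of members beside 5.91% of all genes. The summits were counted in each list separately, and those of nlp-11 were not within 150 bp of each other. Ins-28 lies in a cluster of ins genes on chromosome I, and its summit 25 bp upstream of the 5′ end had a joint signal of 47.9, with 21.6 in replicate 1 and 24.9 in replicate 2. Flp-18, which encodes ligands of NPR-1 and other receptors, had a joint summit of 39.8 in an exon, 99 bp from the 5′ end.

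Both words searched, on both strands, were read in the 151 bases at each summit. TCACGC occurred at 6 of 135 joint member summits (4.44%), beside 2.94% of all joint summits, with 3 at nlp genes, 3 at ins genes and none at flp genes. It occurred at 0 of the 7 strict member summits, beside 5.11% of all strict summits. GTTCGA, a word of the B box inside tRNA genes, occurred at 3 of the 7 (42.9%) beside 33.9% of all strict summits, and at 7 of 135 joint member summits (5.19%) beside 6.38%. The mean GC content of the windows was 47.0% at strict member summits and 37.4% at joint member summits, beside 46.4% and 37% over all summits of those lists.

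The other genes of peptide signalling were counted in the same windows. The shares are read beside 65.1% of all protein-coding genes for a joint summit and 4.10% for a strict one. Windows grow with gene length, and the median lengths were 4160.5 bp for processing, 10278 bp for dense core vesicles, 3841 bp for receptors and 7281 bp for insulin signalling, all longer than those of the members. Of 10 genes of peptide processing, 8 had a joint summit and pamn-1 had a strict one. Pamn-1 encodes an enzyme of peptide amidation, and its strict summit had a signal of 225.1, ranked 39th, at 4867 bp to the downstream side of its 5′ end and near the snoRNA gene T19B4.8. The replicate signals there were 119.3 and 107.3. Egl-3 had a joint signal of 59.2, with 31.3 in replicate 1 and 32.3 in replicate 2, and egl-21 had 35.4, each without a strict summit.

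Of 9 genes for dense core vesicles, 8 had a joint summit and unc-104, which encodes the kinesin that carries these vesicles, had a strict one in an intron with a signal of 93.4. Unc-31, which encodes a factor for vesicle release, had a joint signal of 46.9. Of 99 genes for peptide receptors, 57 (57.6%) had a joint summit and 0 had a strict one. Of 11 genes of insulin signalling, all had a joint summit, among them daf-2 with 42.8 and daf-16 with 46.5, and 0 had a strict one. Of 7 peptide genes outside the symbol rule, 3 had a joint summit, 0 had a strict one, and daf-28, an insulin-like gene that opposes dauer entry, had none in the joint list.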

How the data were processed

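ChIP-seq regions of both replicates were used as the authors deposited them. Per the deposited file descriptions, a relaxed list was made from each replicate with a shared control, another from both replicates, and an IDR-thresholded list from those. Each region has a signal value and a summit offset in the deposited lists. Not given in the sources used here were the aligner, the peak caller and the IDR threshold. The control was not analysed here. The number of value columns that match no sample was 0.

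The strongest of overlapping regions was kept. Summits were assigned to Ensembl release 115 genes (WBcel235, coordinates 1-based) inside the gene or within 5 kb of its 5′ end. Ranks count from the highest signal in a list. Sites matched between lists when summits lay within 150 bp. Counts have exact intervals, and no test was run, since there was 1 condition. The assignment was tested on simulated data. Computation used scipy 1.17.1, pandas 2.3.3, matplotlib 3.10.9 and numpy 2.4.6 under Python 3.11.15.

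The members and gene lists were chosen with earlier results of these data known. Named genes were members with an IDR summit in the window or at 5 to 10 kb, the 5 members of each family with the highest joint signal, the 3 with the highest rank in each replicate, and members with no summit. Other genes named, such as flp-11, flp-18, ins-28, ins-32 and nlp-29, were chosen after their values were seen. Alternatives covered windows, list reduction, overlap, distances and the 1000 highest regions.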

Additional observations from a re-analysis of the deposited data

How the results depend on the processing

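Of 44 alternative settings, 30 left a count within 1.5 times its value and 14 moved it further. The 6 strict members became 12 with 10 kb flanks (7.04% of all genes), 2 without regions near small RNA genes (nlp-46 and ins-37, beside 2.11%) and 3 with the regions above the median signal (2.05%). With only 1 replicate's 341 highest regions the count was 6 for either replicate, although the strict list was itself made from both. With 2 kb flanks, 55 members had a joint summit (43.2% of all genes), 79 a replicate 1 summit (57.6%) and 73 a replicate 2 summit (57.2%). Assigning each summit to the nearest 5′ end gave 56, 80 and 75 members (35.9%, 48.9% and 48.0% of all genes). The 1000 highest regions gave 12, 8 and 16. Matching replicates within 75 bp gave 30 members (22.3% of all genes), and a small RNA gene within 250 bp left 6 joint summits. The 2 kb, 75 bp and 250 bp settings and the 1000 highest regions admit fewer summits by construction, and 10 kb flanks admit more. No paired analysis was possible because there was 1 condition and no test. Depth is unknown, and whether the replicates shared a chromatin preparation is not given in the sources used here.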
